A study of Homo sapiens with 4 samples.

Results

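Epithelial cells hold to one another through tight junctions, adherens junctions and desmosomes, and 10 genes of these structures were followed here: the claudin genes CLDN1, CLDN3, CLDN4 and CLDN7, together with EPCAM, CDH1, CDH3, OCLN, DSP and JUP. The members were taken by name, with earlier results of these data known. All 10 were found in each of the 4 count tables, which hold 18131 genes in all and 15636 in every table. The cells are HCC1143, an established human triple-negative breast carcinoma line grown in RPMI1640 medium with serum. They were left to attach for 24 h in 6-well plates and then kept in 1 nM paclitaxel, a taxane that stabilises microtubules, or in its solvent DMSO. The groups were paclitaxel 24 h, DMSO 24 h, paclitaxel 72 h and DMSO 72 h, with 1 library of the 10x Chromium platform in each. No group has a replicate, so each comparison sets 1 library against 1 other library, no test across samples exists, and every interval below covers counting error only.

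Tight junctions seal the space between neighbouring epithelial cells. Claudins and occludin span the membrane and build their strands, adherens junctions couple cadherins to actin through catenins, and desmosomes couple cadherins to keratin filaments. In breast cancer, low levels of several claudin genes together with low CDH1 mark the claudin-low tumours, and EPCAM is a surface glycoprotein that binds CLDN7. The label of the cells was checked against markers. All 7 keratin genes of the epithelial list were present in every library, at a summed level of 2557 to 5594 CPM (counts per 1000000 UMIs, unique molecular identifiers, summed over the cells of a library). Of the 6 fibroblast markers only COL1A1 was listed, at 10.0 to 13.9 CPM, and PTPRC, the defining leukocyte gene, was listed in the paclitaxel 72 h library alone, at 0.287 CPM. The 5 immune markers summed to 20.7 CPM in paclitaxel 72 h, nearly all of it CD68, and to 5.77 to 6.70 CPM in the other libraries, and the 4 endothelial markers, of which PECAM1 was listed nowhere, to 2.25 to 10.9 CPM. The part of these genes in the results was not tested.

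The kept cells numbered 776 (paclitaxel 24 h), 1101 (DMSO 24 h), 520 (paclitaxel 72 h) and 783 (DMSO 72 h), with median depths of 54864 to 59670 UMIs and library totals of 34850724 to 72024235 UMIs. A count of 0 would allow a level of up to 0.0417 to 0.0861 CPM, on a limit of 3 counts. This limit does not hold for a gene that is not listed in a library. Listed genes had UMIs in at least 6 to 12 cells, so an unlisted gene could have had UMIs in fewer. Ribosomal protein genes took 32.8% of UMIs in paclitaxel 24 h, 27.7% in DMSO 24 h, 28.6% in paclitaxel 72 h and 40.4% in DMSO 72 h. Cells called G1 made up 41.7%, 17.8%, 69.4% and 57.8% of the same libraries in that order, and cells under 2% mitochondrial UMIs 0.773%, 0.545%, 9.81% and 1.40%. The libraries shared 7 barcodes among their 3194. Because the ribosomal share alone moves all other genes, ratios are given on a relative scale. The relative log2 ratio is the log2 CPM ratio of a gene less the median such ratio of the measured genes, those that average 10 CPM or more over both libraries. That median was -0.14 for paclitaxel over DMSO at 24 h and 0.28 at 72 h, -0.29 for DMSO 72 h over DMSO 24 h and 0.13 for paclitaxel 72 h over paclitaxel 24 h. A gene is called higher or lower when its relative ratio is past 1.5-fold and its 95% interval excludes 0.

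On GRCh38 the genes lie on 7 chromosomes, and 4 of them form close pairs. CLDN3 (chr7:73768997-73770270, minus strand) and CLDN4 (chr7:73799542-73832693, plus strand) are separated by 29271 bases on their GENCODE bounds, with no annotated gene between them. The RefSeq start of CLDN4 lies farther from CLDN3, just after chr7:73830995. CDH3 (chr16:68636189-68722616) and CDH1 (chr16:68737225-68835548), both on the plus strand, are separated by 14608 bases, also with no gene between. CLDN1 lies at chr3:190305701-190322475, CLDN7 at chr17:7259903-7263983, EPCAM at chr2:47345158-47387601, OCLN at chr5:69492292-69558104, DSP at chr6:7541575-7586717 and JUP at chr17:41754604-41786931. CLDN7 overlaps ELP5 on the other strand and the unnamed AC003688.1 on its own, and since the counting settings are not given in the sources used here, its counts could hold reads of these. EPCAM, CDH1, CDH3 and OCLN overlap small RNA genes, pseudogenes or unnamed transcripts. OCLN has an annotated pseudogene, OCLNP1, and its level is uncertain to the extent that reads were shared with it.

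The RefSeq promoter table (GRCh38.p14) matched 7 of the 10 members, CLDN1, CLDN3, CLDN4, CLDN7, OCLN, DSP and JUP, with 10 start sites. Of the 250 bases before each start, 3 stretches that touch no GENCODE exon are shown because they set CLDN1, the member with the largest ratio at 24 h, beside CLDN3, a claudin with a close neighbour, and DSP, a desmosome gene that was called in no comparison. They run 5′ to 3′ along the gene, over chr3:190322476-190322540 (minus strand), chr7:73770271-73770520 (minus strand) and chr6:7541421-7541574 (plus strand), with the E-box CAGGTG and the GC box GGGCGG, on either strand, in capitals.
CLDN1: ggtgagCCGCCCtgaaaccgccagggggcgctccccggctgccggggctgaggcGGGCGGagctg
CLDN3: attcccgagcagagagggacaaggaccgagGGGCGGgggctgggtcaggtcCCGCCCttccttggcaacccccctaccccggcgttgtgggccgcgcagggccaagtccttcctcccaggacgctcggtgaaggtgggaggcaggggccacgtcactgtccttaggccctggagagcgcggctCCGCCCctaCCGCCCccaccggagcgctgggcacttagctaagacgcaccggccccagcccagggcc
DSP: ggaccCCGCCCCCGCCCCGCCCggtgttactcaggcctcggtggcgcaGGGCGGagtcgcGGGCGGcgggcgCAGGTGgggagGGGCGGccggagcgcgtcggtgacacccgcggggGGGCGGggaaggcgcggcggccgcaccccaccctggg
CLDN1 and CLDN3 hold 2 and 4 GC boxes in these stretches and no E-box, and DSP holds 7 GC boxes and 1 E-box. Most of the CLDN1 window and part of the DSP window are exonic and not shown. Over all 10 windows of 250 bases, 7 held a GC box, against 42.6% of the 35116 windows in the table, and 5 held the E-box, against 17.5%. The 10 windows come from 7 genes, and those with the E-box from 4. The share of G and C bases was 58.8% (CLDN4) to 78% (DSP) in these windows, against a median of 58% in the table. The part of this difference in the matches was not tested. The motifs did not overlap in any member. The grainyhead-like site AACCGGTT was in 0 of the 10 windows and in 0.117% of the table. These are letter matches, not measured binding.

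After 24 h of paclitaxel the 4 claudins among the members were those past 1.5-fold over DMSO. EPCAM (0.44), OCLN (0.21) and DSP (0.11) were also above the median of all genes by less than that, with intervals that excluded 0, and CDH1, CDH3 and JUP lay at or below it. All 4 claudins were called higher, and of the other 6 members 0 were called in either direction. Over all 8096 measured genes, 6.3% were called higher and 1.26% lower, 7.56% in either direction. The median relative log2 ratio of the 10 members was 0.33, against 0 for all measured genes by construction, and that of the 4 claudins was 0.77. The claudin genes CLDN12 (0.04, -0.10 to 0.19) and CLDN15 (-0.09, -0.25 to 0.07), which are not members, were not called. They are named for their family after their values were seen.

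CLDN1, which encodes a strand-forming claudin needed for the skin barrier in mice, was at 84.3 CPM in paclitaxel 24 h, 34.2 CPM in DMSO 24 h, 109 CPM in paclitaxel 72 h and 84.1 CPM in DMSO 72 h. DMSO 24 h was thus the low library, and the paclitaxel 24 h and DMSO 72 h levels in CPM did not differ beyond their counting intervals. The relative log2 ratio of CLDN1 at 24 h was 1.44 (95% interval 1.37 to 1.51), higher than 99.5% of measured genes. For DMSO 72 h over the same DMSO 24 h library the ratio was 1.59 (1.51 to 1.66), so the 2 libraries were not as alike on this scale. In cells called G1 the 24 h ratio was 0.88. At 72 h the ratio of paclitaxel over DMSO was 0.10 (0.03 to 0.16), and -0.00059 with the mean of per-cell CPM. By called phase the 72 h ratio was 0.17 in G1, -0.26 in S and -0.03 in G2/M, so its sign was not stable.

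CLDN3 and CLDN4 encode claudins known as receptors of a Clostridium perfringens enterotoxin. CLDN3 was at 161 CPM in paclitaxel 24 h and 105 CPM in DMSO 24 h, and at 170 CPM in paclitaxel 72 h and 133 CPM in DMSO 72 h. The relative log2 ratio was 0.76 (0.72 to 0.81) at 24 h and 0.07 (0.02 to 0.12) at 72 h, and the small 72 h value changed sign in cells called G1 (-0.03), in thinned cells (-0.06) and without cells above 100000 UMIs (-0.07). CLDN4 was at 116 CPM in paclitaxel 24 h and 74.7 CPM in DMSO 24 h, and at 280 CPM in paclitaxel 72 h and 124 CPM in DMSO 72 h. Its relative log2 ratio was 0.77 (0.72 to 0.83) at 24 h and 0.89 (0.85 to 0.94) at 72 h, so it was called at both times, and paclitaxel 72 h was its highest library.

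CLDN7, the claudin that binds EPCAM, was at 237 CPM in paclitaxel 24 h and 167 CPM in DMSO 24 h, and at 342 CPM in paclitaxel 72 h and 186 CPM in DMSO 72 h. Its relative log2 ratios of 0.64 (0.60 to 0.68) and 0.60 (0.56 to 0.64) were alike at both times and close to the 1.5-fold limit, so the call was lost at 24 h without subtraction of the median (0.50) and at 72 h with TMM factors (0.57). EPCAM was at 307 CPM in paclitaxel 24 h and 249 CPM in DMSO 24 h, and at 347 CPM in paclitaxel 72 h and 167 CPM in DMSO 72 h. It was not called at 24 h (0.44, 0.41 to 0.47) and was called higher at 72 h (0.77, 0.73 to 0.81). The order of its levels differed from that of the claudins, since DMSO 72 h and not DMSO 24 h was the lowest library.

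**Figure D1:**
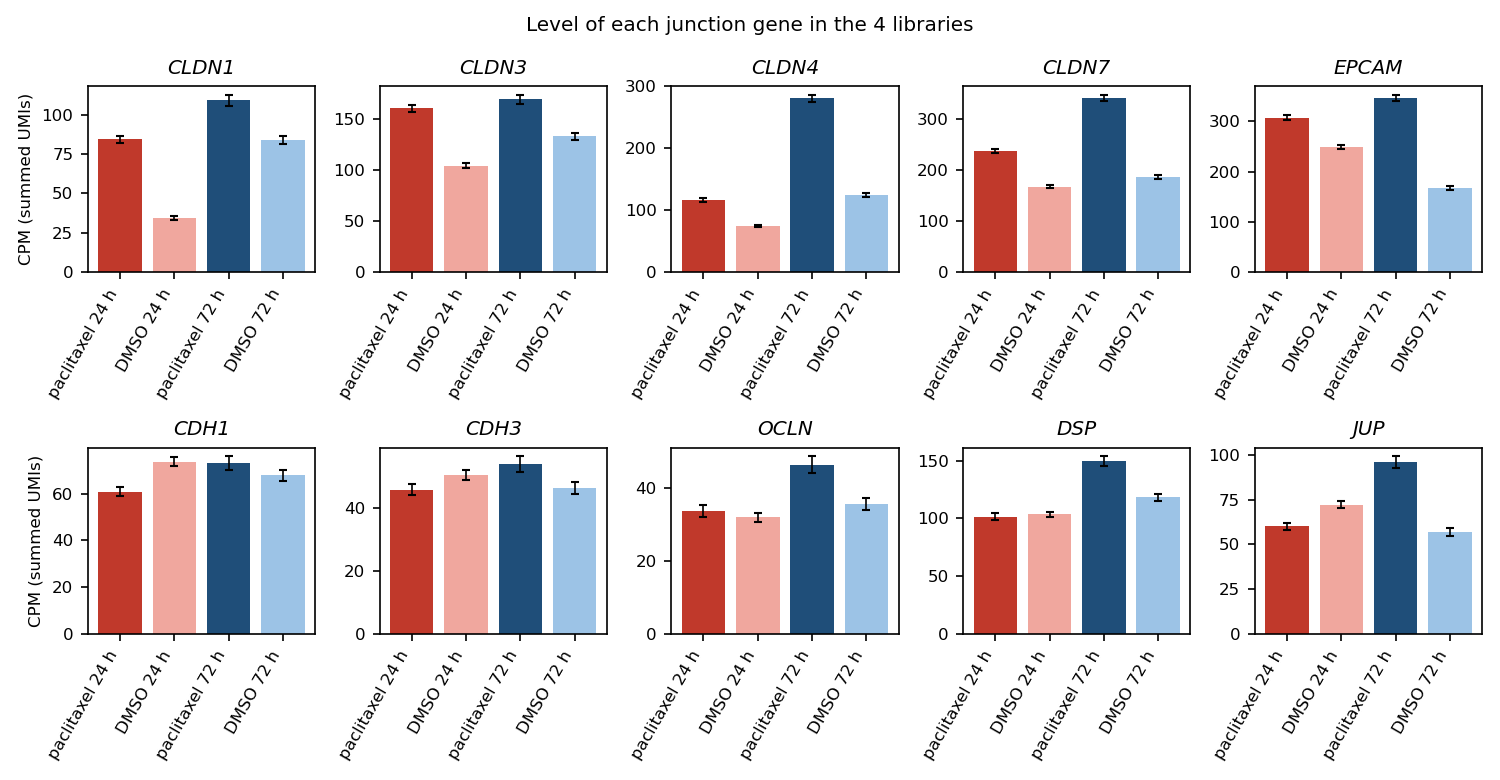
Level of each of the 10 junction genes in CPM of summed UMIs (vertical axis, from 0) in the 4 libraries, with exact Poisson 95% intervals that cover counting error only. CLDN1, CLDN3, CLDN4 and CLDN7 are lowest in DMSO 24 h, EPCAM is lowest in DMSO 72 h at 167 CPM, and CLDN4 reaches 280 CPM in paclitaxel 72 h.

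At 72 h, 3 members were called higher with paclitaxel, CLDN4, CLDN7 and EPCAM, and 0 lower. Of all 8306 measured genes 11.1% were called higher and 7.93% lower, 19.1% in either direction. The members' median relative log2 ratio was 0.10, and that of the claudins was 0.35. The DMSO 72 h library had the highest ribosomal share, and cells under 2% mitochondrial UMIs were most frequent in paclitaxel 72 h. In paclitaxel 72 h these 51 cells had 356 CPM of CLDN4, against 273 CPM in the other 469, 442 against 338 CPM of EPCAM and 73.6 against 112 CPM of CLDN1. Without those cells every call of the 10 members was the same in all comparisons made.

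Among the adhesion receptors of adherens junctions, CDH1 (E-cadherin) was at 60.8 CPM in paclitaxel 24 h and 73.6 CPM in DMSO 24 h, and at 73.0 CPM in paclitaxel 72 h and 67.7 CPM in DMSO 72 h. Its relative log2 ratios were -0.14 (-0.20 to -0.07) at 24 h and -0.17 (-0.25 to -0.10) at 72 h, and the second was 0.11 without subtraction of the median. CDH3 (P-cadherin, a cadherin of basal and myoepithelial breast cells) had a range over the 4 libraries of 45.8 to 54.0 CPM. Its relative ratio was -0.0020 at 24 h and -0.06 at 72 h, and both intervals included 0; the 72 h value was 0.22 without subtraction.

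OCLN, which encodes the tight junction protein occludin, was at 33.7 CPM in paclitaxel 24 h and 32.0 CPM in DMSO 24 h, and at 46.5 CPM in paclitaxel 72 h and 35.7 CPM in DMSO 72 h. Its relative ratios of 0.21 and 0.10 were under 1.5-fold. DSP, whose product desmoplakin anchors keratin filaments to desmosomes, was at 102 CPM in paclitaxel 24 h and 104 CPM in DMSO 24 h, and at 150 CPM in paclitaxel 72 h and 119 CPM in DMSO 72 h. Its relative ratios were 0.11 and 0.06, and the 24 h value was -0.03 without subtraction of the median and -0.21 in cells called G1.

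JUP encodes plakoglobin, a catenin of both adherens junctions and desmosomes. It was at 60.1 CPM in paclitaxel 24 h and 72.3 CPM in DMSO 24 h, and at 96.2 CPM in paclitaxel 72 h and 57.1 CPM in DMSO 72 h. The relative log2 ratio was -0.13 (-0.19 to -0.07) at 24 h and 0.47 (0.40 to 0.54) at 72 h. Neither was past 1.5-fold, but without subtraction of the median the 72 h value was 0.75, which is past it.

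The change of the paclitaxel ratio between the times separated the members. The ratio at 72 h minus that at 24 h was -1.35 for CLDN1 (-1.44 to -1.25) and -0.69 for CLDN3 (-0.76 to -0.63). It was 0.60 for JUP (0.50 to 0.70), 0.33 for EPCAM (0.28 to 0.38) and 0.12 for CLDN4 (0.05 to 0.19). For CLDN7, CDH1, CDH3, OCLN and DSP the interval of the difference included 0, and the values lay between -0.11 and -0.03. Each time has its own DMSO library, and a difference between libraries cannot be told apart from the effect of time.

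**Figure D2:**
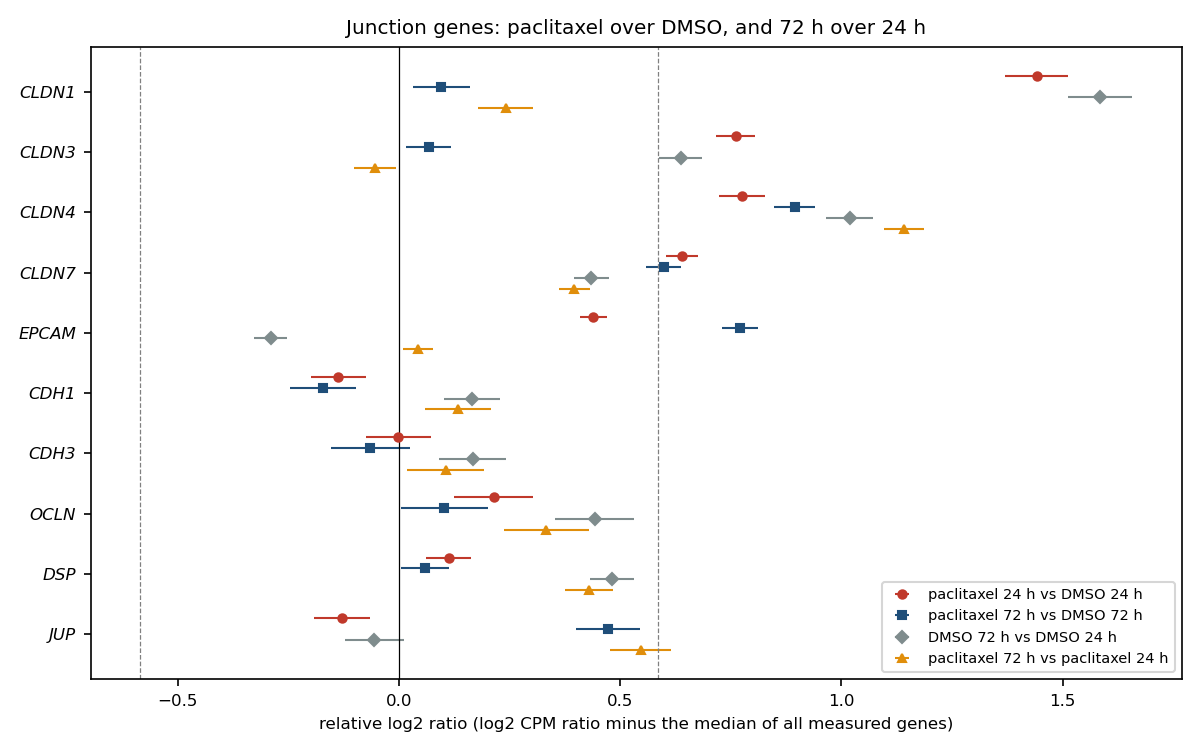
Relative log2 ratio (horizontal axis) of the 10 junction genes in 4 comparisons, with 95% counting intervals. The solid line marks 0 and the dashed lines 1.5-fold. CLDN1 is at 1.44 for paclitaxel over DMSO at 24 h and at 0.10 at 72 h, and CLDN4 is right of the dashed line in all 4 comparisons.

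With time in DMSO alone, claudins again made up the members called; this comparison shares the DMSO 24 h library with that of paclitaxel at 24 h. In DMSO 72 h over DMSO 24 h, CLDN1 (1.59, 1.51 to 1.66), CLDN4 (1.02, 0.97 to 1.07) and CLDN3 (0.64, 0.59 to 0.68) were called higher and 0 members lower. Of all 8077 measured genes 13% were higher and 9.89% lower, 22.9% in either direction. The CLDN3 call was lost without subtraction of the median (0.35) and with TMM factors (0.49), and the CLDN4 call in cells called G1 (0.56). CLDN1 was at 0.76 in cells called G1, still past 1.5-fold. CLDN7 was at 0.43, OCLN at 0.44 and DSP at 0.48, all under 1.5-fold, and DSP was at -0.02 in cells called G1. EPCAM was at -0.29 (-0.33 to -0.25), with 167 CPM in DMSO 72 h and 249 CPM in DMSO 24 h. CDH1 and CDH3 were both at 0.17, and at -0.12 without subtraction.

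Within paclitaxel, the 72 h library was higher than the 24 h library by at least 1.5-fold for CLDN4 alone (1.14, 1.10 to 1.19), where 7.95% of 8335 genes were higher and 4.93% lower, 12.9% in either direction. JUP was at 0.55 (0.48 to 0.62), just short of the limit, and DSP at 0.43. CLDN1 was at 0.24, and CLDN3 at -0.05, with 170 CPM in paclitaxel 72 h and 161 CPM in paclitaxel 24 h. EPCAM was at 0.04, and at -0.11 with TMM factors, and CLDN1 was at -0.03 without cells above 100000 UMIs. Set against DMSO 24 h, the paclitaxel 72 h library had all 4 claudins called higher, where 15.5% of 8433 genes were higher and 12.3% lower, 27.9% in either direction. The values were 1.89 for CLDN4, 1.66 for CLDN1 (0.92 in cells called G1), 1.01 for CLDN7 and 0.68 for CLDN3, the last under the limit in cells called G1 (0.58) and with TMM factors (0.53).

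The share of cells with a UMI was compared in cells thinned to an equal depth of 20000 UMIs, which left out 26, 21, 39 and 17 shallower cells in paclitaxel 24 h, DMSO 24 h, paclitaxel 72 h and DMSO 72 h. Shares and UMIs per thinned cell are not on the relative scale, so differences in ribosomal share between libraries remain in them. CLDN1 was detected in 65.3% of thinned cells in paclitaxel 24 h (95% exact binomial interval 61.8% to 68.7%) and in 37.9% in DMSO 24 h (35.0% to 40.8%). At 72 h the shares were 68.2% in paclitaxel and 65.1% in DMSO, and their intervals overlap. Before thinning the 4 shares were 84.5%, 66.1%, 81.5% and 83.0%. The libraries hold no cell type that should lack these genes, so the share that free RNA alone would give is not known for them.

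EPCAM was detected in 94.5% to 97.8% of thinned cells and CLDN7 in 459 of 481 in paclitaxel 72 h and 972 of 1080 in DMSO 24 h, its highest and lowest shares. These shares differed beyond their binomial intervals but lie close to 100%, where detection leaves little room to show a difference, and UMIs per cell were therefore also compared. EPCAM had a median of 5 UMIs per thinned cell in paclitaxel 24 h and 4 in DMSO 24 h, and of 5 in paclitaxel 72 h and 3 in DMSO 72 h. For CLDN3 the share was 79.2% in paclitaxel 72 h (75.3% to 82.8%) and 87.0% in DMSO 72 h (84.4% to 89.2%), although its CPM was the higher one in paclitaxel 72 h, and no order is read from these shares. CLDN3 UMIs were spread less evenly in paclitaxel 72 h: the tenth of cells with the most UMIs held 35.8% of them there and 26.6% in DMSO 72 h. This was not particular to CLDN3, since the share was higher in paclitaxel 72 h than in DMSO 72 h for every member. It was 37.8% and 29.7% for CLDN4, and 36.7% and 31.4% for CDH1. CDH1 was detected in 62.4% of thinned cells in paclitaxel 24 h and 69.7% in DMSO 24 h, and in 60.1% in paclitaxel 72 h and 66.4% in DMSO 72 h.

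In paclitaxel 72 h some cells held many CLDN4 UMIs, up to 69 per thinned cell, the highest count of any member. At least 10 UMIs per thinned cell were found in 76 of 481 cells (15.8%, 12.7% to 19.4%) of paclitaxel 72 h and in 7 of 766 (0.914%, 0.368% to 1.87%) of DMSO 72 h. At 24 h such cells were 13 of 750 (1.73%) in paclitaxel and 2 of 1080 (0.185%) in DMSO. For EPCAM the shares at or above 10 UMIs were 22.0% in paclitaxel 72 h and 23 of 766 cells in DMSO 72 h, and 13.6% in paclitaxel 24 h and 6.39% in DMSO 24 h. For CLDN7 they were 21.8% in paclitaxel 72 h and 3.66% in DMSO 72 h. The median number of the 10 members detected in a thinned cell was 8 in both 72 h libraries and 7 in both 24 h libraries, and 0 thinned cells lacked all of them.

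**Figure D3:**
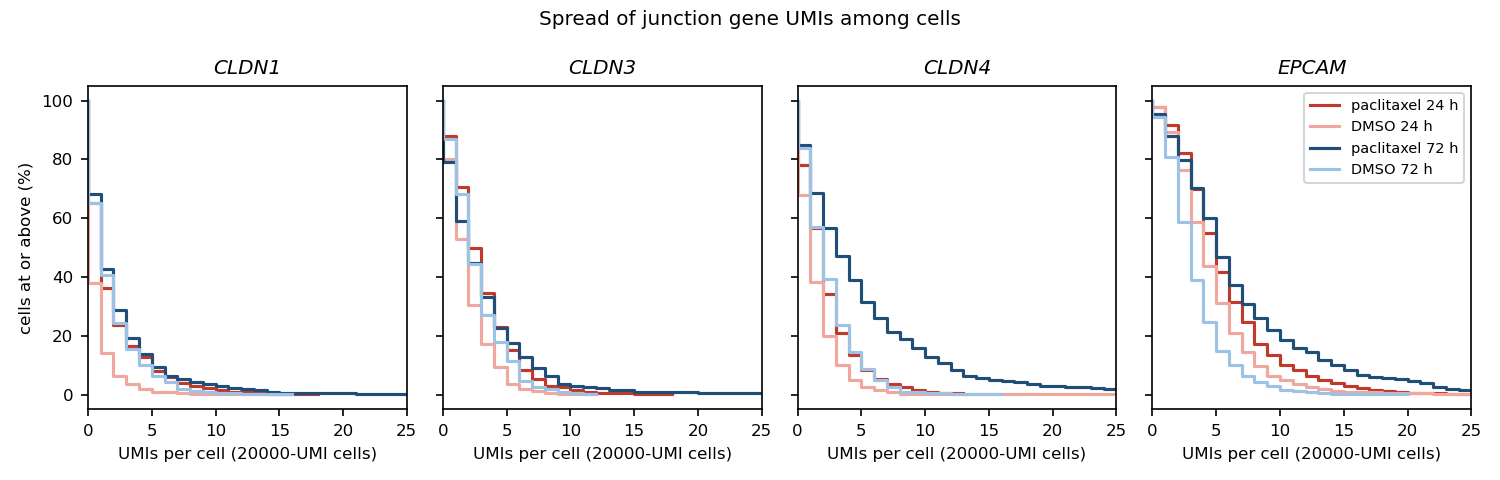
Share of cells (vertical axis, %) with at least the number of UMIs on the horizontal axis, for CLDN1, CLDN3, CLDN4 and EPCAM, in cells thinned to 20000 UMIs. Lines are libraries. For CLDN4 the paclitaxel 72 h line stays highest, with 15.8% of cells at 10 UMIs or more, and for CLDN1 the DMSO 24 h line is lowest.

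Cell cycle phases were called from S phase and G2/M phase gene lists that hold none of the 10 members. Ratios of G2/M over G1 are plain log2 CPM ratios within a library, with no median subtracted. CLDN1 was lower in cells called G2/M than in cells called G1: 66.4 against 102 CPM in paclitaxel 24 h (log2 ratio -0.62, -0.72 to -0.53) and 24.5 against 56.9 CPM in DMSO 24 h (-1.21, -1.36 to -1.07). In paclitaxel 72 h the log2 ratio was -0.32 (-0.43 to -0.22), and in DMSO 72 h it was -0.06 with an interval that included 0. EPCAM had the opposite order, with log2 ratios of G2/M over G1 of 0.37, 0.25, 0.64 and 0.44 in paclitaxel 24 h, DMSO 24 h, paclitaxel 72 h and DMSO 72 h. CLDN7 differed little between phases, at 0.0038 to 0.12. CLDN4 was lower in G2/M at 24 h (-0.29 in paclitaxel, -0.18 in DMSO) and higher at 72 h (0.24 in paclitaxel, 0.42 in DMSO).

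The shares of cells in each phase differed between the libraries, so the ratios were also taken within a phase. For CLDN1 at 24 h the relative log2 ratio of paclitaxel over DMSO was 0.88 in G1 (0.75 to 1.02), 1.33 in S (1.18 to 1.48) and 1.55 in G2/M (1.44 to 1.66), so it was past 1.5-fold in each. CLDN3, CLDN4 and CLDN7 were also called higher at 24 h in every phase, at 0.71 to 0.82, 0.65 to 0.87 and 0.61 to 0.63. At 72 h EPCAM was called higher in all phases (0.67 in G1, 0.96 in S, 0.94 in G2/M). CLDN4 was at 1.00 in G1 and 0.88 in G2/M but under the limit in the 30 paclitaxel and 80 DMSO cells called S (0.48). CLDN7 was called at 72 h in G1 (0.62) but not in S (0.53) or G2/M (0.57). CDH1 was called in no phase at either time, with values of -0.30 to 0.07.

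**Figure D4:**
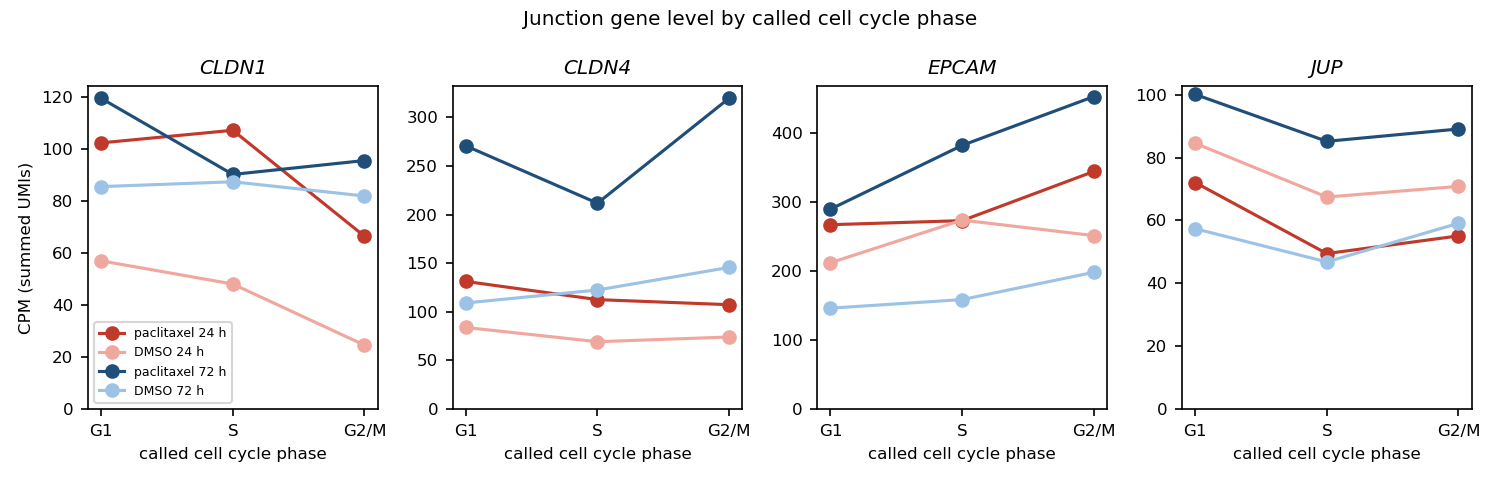
CPM of summed UMIs (vertical axis, from 0) in cells called G1, S and G2/M for CLDN1, CLDN4, EPCAM and JUP, with a line for each library. CLDN1 in DMSO 24 h is at 56.9 CPM in G1 and 24.5 CPM in G2/M, and EPCAM in paclitaxel 72 h is at 289 CPM in G1 and 452 CPM in G2/M.

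Across cells of 1 library the members were only loosely tied to each other. Correlations are Pearson r of log1p UMIs in thinned cells, given as a description; cells of 1 library share their handling, and low counts keep r small. Over the 45 pairs of members the median r was 0.07 to 0.12 in the 4 libraries, and the median over all pairs of 1997 genes with at least 50 CPM in every library was 0.01 to 0.02. By mean r over the 4 libraries the highest pair was CLDN3 with CLDN4 (0.28) and the next CDH1 with CDH3 (0.20), both of which are neighbours in the genome. By library, CLDN3 with CLDN4 ranked 2 of 45 in paclitaxel 24 h, behind CLDN4 with CDH1 (0.24), and 1 in the others. CDH1 with CDH3 ranked 3 in paclitaxel 24 h, 11 in DMSO 24 h, 2 in paclitaxel 72 h and 6 in DMSO 72 h, so its place in the mean rests largely on paclitaxel 72 h. For CLDN3 and CLDN4, r was 0.23 in paclitaxel 24 h, 0.21 in DMSO 24 h, 0.49 in paclitaxel 72 h and 0.21 in DMSO 72 h. In paclitaxel 72 h it was 0.48 without cells under 2% mitochondrial UMIs and 0.47 in cells called G1, alternatives chosen after seeing the data. For CDH1 and CDH3, r was 0.21, 0.13, 0.32 and 0.14 in the same order of libraries.

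The 2 neighbouring claudins can be seen in the same cells. In paclitaxel 72 h, CLDN4 averaged 5.71 UMIs in the 381 thinned cells that had CLDN3 and 2.57 in the 100 that did not. In DMSO 72 h the averages were 2.49 UMIs in the 666 cells with CLDN3 and 1.79 in the 100 without. Neither gene was seen in 34 of 481 cells in paclitaxel 72 h and in 25 of 766 in DMSO 72 h. CLDN1 with EPCAM was the lowest pair by mean r (-0.04), at -0.15 in paclitaxel 24 h, -0.07 in DMSO 24 h, 0.02 in paclitaxel 72 h and 0.04 in DMSO 72 h. In DMSO 72 h the lowest pair was CLDN1 with DSP (-0.03). CLDN7 and EPCAM, whose products bind each other, had r of 0.19, 0.15, 0.18 and 0.10.

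**Figure D5:**
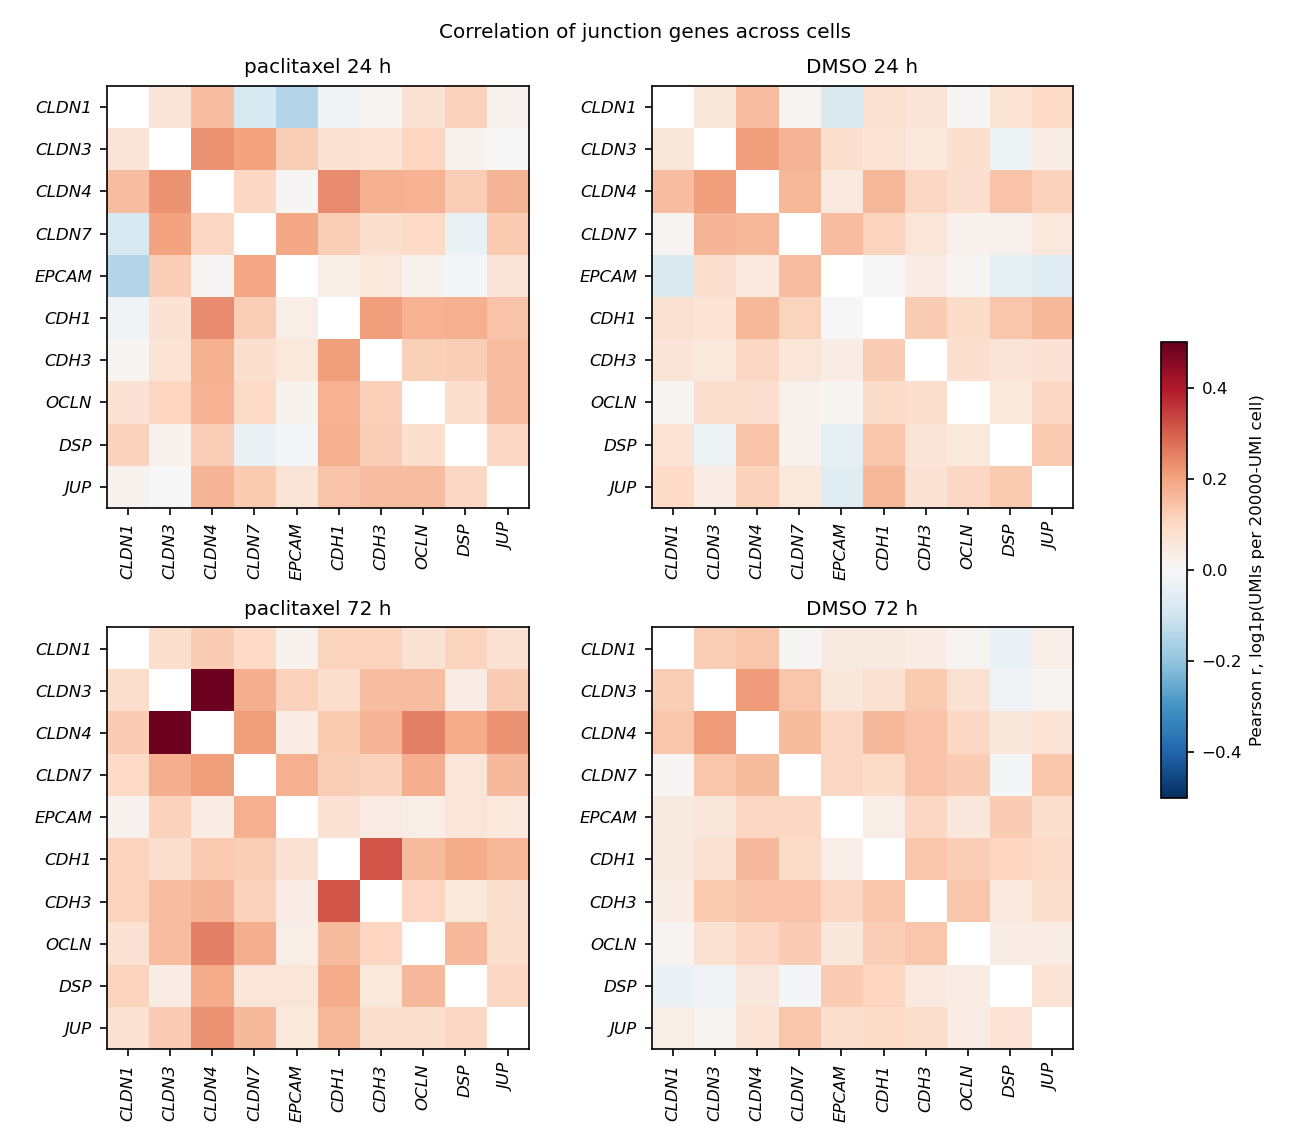
Pearson r across thinned cells for every pair of the 10 junction genes, in each library (colour scale -0.5 to 0.5). The CLDN3 and CLDN4 cell is the darkest in paclitaxel 72 h, at 0.49, followed there by CDH1 and CDH3 at 0.32.

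Likeness to all 1997 genes was ranked by mean r over the 4 libraries. EMP1, an epithelial membrane protein gene, was among the 3 most alike for 4 of the 10 members, with 0.29 for CLDN4 and 0.28 for CDH1. For CLDN1 the 3 most alike genes were FST (0.25), TM4SF1 (0.24) and AARD (0.23), and the least alike was the chaperone gene HSP90AA1 (-0.17). EPCAM was most like CALM2 (0.31), PDIA6 (0.29) and HMGB1 (0.29). DSP was most like SOX4 (0.20), SOX9 (0.20) and MCL1 (0.19). For 7 members the least alike gene was a ribosomal protein gene, as with RPL27A for EPCAM (-0.25).

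Other junction genes were not among the genes called at 24 h, though some were just short of the limit. These were PVRL4 (0.58, 0.47 to 0.69) and PVRL2 (nectin-2, 0.52, 0.46 to 0.58). With so few genes, the count that follows is not read as a difference from the share over all genes. Of 41 measured genes in the tight junction, adherens junction, desmosome and gap junction lists, leaving out the members, 0 were called in either direction with paclitaxel at 24 h, where 7.56% of all measured genes were called, and their median relative log2 ratio was -0.01. TJP1, the scaffold protein ZO-1 gene, was at 55.9 CPM in paclitaxel 24 h and 76.6 CPM in DMSO 24 h (-0.32), and CXADR was at 0.45. At 72 h, 7 of 43 were higher and 1 lower, with a median of 0.04, where 11.1% of all measured genes were higher and 7.93% lower; a count this small is near that share. The higher ones included CLDN15 (25.3 CPM in paclitaxel 72 h and 12.5 CPM in DMSO 72 h, 0.74), LIMA1 (0.83), CDH2 (N-cadherin, 0.69), PVRL2 (0.64) and the connexin gene GJB2 (0.65). The desmosome genes EVPL (-0.59) and PKP4 (-0.58) were lowest in their list, and of these EVPL was past the limit. Its levels of 22.8 CPM in paclitaxel 72 h and 28.3 CPM in DMSO 72 h were under 1.5-fold apart without subtraction of the median.

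Of 9 measured genes in the list of EPCAM family and partners, 3 were called higher at 24 h and 2 at 72 h, and 0 lower. Over all measured genes 6.3% and 11.1% were higher. SPINT1, a membrane-bound protease inhibitor gene, was at 64.3 CPM in paclitaxel 24 h and 39.5 CPM in DMSO 24 h and was called higher, at a relative log2 ratio of 0.84. At 72 h it was not called (0.41, 0.34 to 0.48). The lowest at 24 h were ST14 (-0.08), ADAM17 (-0.01) and ADAM10 (0.14). The tetraspanin gene CD9 was called higher with paclitaxel at both times, at 0.69 at 24 h and 0.62 at 72 h. Its 24 h levels, 337 CPM in paclitaxel and 230 CPM in DMSO, were under 1.5-fold apart without subtraction of the median.

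Among the regulators of the epithelial state, 1 of 8 measured genes was called higher and 0 lower at 24 h, EHF, an epithelial ETS factor, at 0.74, where 6.3% of all measured genes were higher and 1.26% lower. At 72 h KLF4 was higher (58.5 CPM in paclitaxel 72 h and 23.3 CPM in DMSO 72 h, 1.04), and GRHL2, a grainyhead-like factor of epithelial genes, was lower (15.9 CPM in paclitaxel 72 h and 20.9 CPM in DMSO 72 h, -0.67). Without subtraction of the median the GRHL2 ratio was under 1.5-fold. The repressor genes ZEB1, SNAI1, SNAI2 and TWIST1 were all under 10 CPM in every library; they are named for their role after their values were seen. SNAI1 was at 2.25 CPM in paclitaxel 24 h and 2.12 CPM in DMSO 24 h, and at 9.44 CPM in paclitaxel 72 h and 2.05 CPM in DMSO 72 h. SNAI2 was at 2.88 CPM in paclitaxel 24 h and 1.14 CPM in DMSO 24 h, and at 5.16 CPM in paclitaxel 72 h and 1.58 CPM in DMSO 72 h. Both were thus highest in paclitaxel 72 h, as was ZEB1, at 2.50 CPM there and 0.955 CPM in DMSO 72 h. TWIST1 was highest in DMSO 24 h, at 6.14 CPM, and was at 4.59 CPM in paclitaxel 24 h. It was at 5.68 CPM in paclitaxel 72 h and 3.37 CPM in DMSO 72 h. Of the 7 measured mesenchymal markers at 24 h, 1 was called higher and 1 lower, with a median of -0.40. AXL was lower (81.4 CPM in paclitaxel 24 h and 157 CPM in DMSO 24 h, -0.81), CDH2 was at -0.52 and COL4A1 at -0.42, and VIM was higher (1824 CPM in paclitaxel 24 h and 1287 CPM in DMSO 24 h, 0.64). The VIM ratio was under 1.5-fold without subtraction of the median. At 72 h 2 of 6 were higher and 0 lower, with a median of 0.24, where 11.1% of all measured genes were higher. These were TAGLN (38.9 CPM in paclitaxel 72 h and 8.29 CPM in DMSO 72 h, 1.95) and CDH2 (0.69), and VIM was at -0.25. TAGLN was at 40.1 CPM in paclitaxel 24 h and 58.2 CPM in DMSO 24 h. In DMSO 72 h over DMSO 24 h, TAGLN (-2.53) and CDH2 (-1.16) were both called lower. In paclitaxel 72 h over paclitaxel 24 h, TAGLN (-0.17) and CDH2 (0.06) were not called. The cause of the low DMSO 72 h levels was not tested.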

How the data were processed

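The authors deposited, for each of the 4 libraries, raw UMI counts for each gene and cell, not normalized as the values show. The submitters' processing notes list Cell Ranger 2.0 and GRCh38. Barcodes with at least 500 genes and under 20% MT- UMIs were kept, 3180 of 3194. UMIs were summed over kept cells and scaled to CPM. A gene missing from 1 table was set to the count 1 below the fewest cells of any listed gene (6 to 12 cells), and counts under 3 were set to 3. Ratios carry exact Clopper-Pearson 95% intervals for the ratio of 2 Poisson counts. The change of a ratio between times has an interval from the 4 counts on the log scale. The ratio code was checked on simulated data. Cells were thinned without replacement (seed 1), and phases were called with scanpy 1.11.5. Doublets were not called. TMM factors come from edgeR 4.0.16. Positions are from GENCODE release 29 on GRCh38. The members and gene lists were chosen with earlier results of these data known. Apart from CLDN12, CLDN15 and the repressor genes, genes named beside the members are among the 3 highest or 3 lowest ratios of their list, or the 3 most and the 1 least alike across cells. Alternatives were the unsubtracted ratio, TMM factors, per-cell means, thinned cells, other cell filters, a higher level minimum and subsets of cells. Some genes of these lists and rankings are not reported here. No replicate exists, so no p-value was computed.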

Additional observations from a re-analysis of the deposited data

Results flagged for a closer look

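JUP, the plakoglobin gene, had relative log2 ratios of paclitaxel over DMSO on opposite sides of 0 at the 2 times, -0.13 at 24 h and 0.47 at 72 h, each with a counting interval that excluded 0. The levels were 60.1 CPM in paclitaxel 24 h and 72.3 CPM in DMSO 24 h, and 96.2 CPM in paclitaxel 72 h and 57.1 CPM in DMSO 72 h. The difference between the times was not tested, since each group is 1 library.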

How the results depend on the processing

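The number of members called and their median were recomputed under 10 alternatives. The medians kept their direction and stayed under 1.5-fold in all 5 comparisons, and for paclitaxel over DMSO at 72 h ranged from 0.04 to 0.38. The number called higher in paclitaxel 72 h over paclitaxel 24 h was 2 in place of 1 without subtraction of the median, with the mean of per-cell CPM, in cells thinned to 20000 UMIs, with genes of at least 50 CPM and without cells above 100000 UMIs. JUP was at 0.59 to 0.68 in the 4 of these for which its own value was recomputed. The other counts stayed within 1.5 times. Of 450 recomputed member ratios, 25 changed sign, 0 of them called values, 10 lost a call and 5 gained one. The CLDN7 call at 72 h was also lost with the mean of per-cell CPM (0.58), in thinned cells (0.58) and without cells above 100000 UMIs (0.56), and the cause was not tested. No paired analysis was possible because each group has 1 library and the labels give no replicate numbers. At these depths counting error is small, and the missing replicates limit every comparison. For OCLN, the member with the fewest UMIs (1621 to 2305 per library), intervals of a ratio were widest.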
